A study of Rattus norvegicus with 8 samples.

Results

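*Aldh1a1*, *Sox6*, *Kcnj6*, *Calb1*, *Otx2*, *Ndnf* and *Grp* are markers that tell apart the dopaminergic (DA) neurons of the ventral and the dorsal midbrain. Probes were taken by one rule, that the RefSeq accession printed for the probe belongs to one of these rat symbols, and control probes were left out. The rule found 8 probes for 6 of the 7 genes, among 45598 probes and 16678 named genes on the array. *Otx2* and *Kcnj6* had 2 probes each and the other 4 genes had 1 each. No probe was paired with *Ndnf* by this rule, and it is named here without a value. All 8 probes were well above background on all 8 arrays.

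The arrays measured RNA from the *substantia nigra* (SN) of female Sprague Dawley rats, which were 3 months old at the start of the study. Rats of the AAV-αSyn group were injected in the SN of one side with an AAV6 vector, an engineered adeno-associated virus, that carries wild-type human α-synuclein (αSyn). Those of the AAV-Null group were given a control AAV6 vector. The tissue was microdissected from the injected side at 20 weeks after surgery, and each group holds 4 arrays of single samples. The AAV-αSyn vector was given at 5.2e10 vector genomes per µL and the AAV-Null vector at 5.3e9, so the transgene and the vector dose cannot be told apart in this comparison. The promoter that drives the transgene is not given in the sources used here, and a probe for human αSyn was not used here as a check of the labels. The methods describe biological replicates, with the SN taken from each brain, but fewer per group than the 4 arrays. The labels do not say which arrays are of separate rats, and p-values measure the spread between these arrays.

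DA neurons of the midbrain share the enzymes and transporters that make and store dopamine, but differ in other genes along the dorsoventral axis. Neurons of the ventral tier of the SN, which are lost early in Parkinson's disease, typically express the transcription factor Sox6, the retinoic acid-producing enzyme Aldh1a1 and the potassium channel subunit Girk2, encoded by *Kcnj6*. Those of the dorsal tier and of the ventral tegmental area (VTA) more often express the calcium buffer calbindin (*Calb1*), and subsets of VTA neurons express the transcription factor Otx2 and gastrin-releasing peptide (*Grp*). None of these genes is confined to DA neurons in the midbrain.

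Values are log2 intensities after quantile normalization between arrays, and a log2 fold change is the AAV-αSyn mean minus the AAV-Null mean. The 2 groups were compared with limma's moderated test at 33848 probes, with Benjamini–Hochberg adjustment over the whole set. Across the arrays, 74.8% to 77.5% of spots were well above background. The 8 arrays lie on 1 slide read in 1 scan, and each of the 2 columns of the slide holds 2 arrays of each group. Arrays of the 2 groups with the same replicate number share a row of the slide. The 6 defining markers of DA neurons examined (*Th*, *Slc6a3*, *Slc18a2*, *Ddc*, *Nr4a2* and *Pitx3*) were above background on every array. Marker lists of neighbouring regions are given here by their values, as 1 of their genes passed the adjustment. The 3 measured thalamic markers (*Gbx2*, *Lef1* and *Prkcd*) were all lower in the AAV-αSyn group, with 2 at an unadjusted p under 0.05, where 47.6% of all probes tested were lower and 2.34% were lower at that p, and the log2 of their summed intensity was 11.60 to 13.92 on the AAV-Null arrays and 10.58 to 12.11 on the AAV-αSyn arrays. The 3 serotonergic markers (*Tph2*, *Slc6a4* and *Fev*) were all higher, at 8.38 to 11.04 and 10.83 to 12.43, and 2 of them had an unadjusted p under 0.05, where 3.31% of all probes were higher at that p. The thalamic and the serotonergic sums overlapped between the groups. Of the 7 hindbrain markers tested, 4 were above background on AAV-αSyn arrays alone and so passed the filter through that group, and 1 was above background on all 8 arrays, so no count of differences is given for them. Their sum was 8.06 to 8.28 on the AAV-Null arrays and 9.28 to 9.80 on the AAV-αSyn arrays. The one above background throughout, *Slc6a5*, a glycine transporter gene, rose by a log2 fold change of 1.28 (limma, adjusted p = 0.0423). That call held in 7 of 12 alternative settings of the processing and in 1 of 8 with an array left out. For cortex and hippocampus, choroid plexus, GABAergic neurons, oligodendrocyte precursors, oligodendrocytes, astrocytes, microglia, vessels and meninges, blood and Purkinje cells, no marker had an unadjusted p under 0.05, and the median log2 fold changes of these lists lay between −0.25 and 0.19. The choroid plexus marker *Ttr* stood apart on AAV-αSyn replicate 2, at 12.33 against 6.64 to 8.91 on the other arrays. The part of these regions in the values below was not tested.

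All 8 probes of the subtype markers were lower in the AAV-αSyn group, where 47.6% of all probes tested were lower. Of the 8 probes, 4 had an unadjusted p under 0.05, from *Otx2*, *Grp* and *Kcnj6*, against 2.34% of all probes in this direction. After the Benjamini–Hochberg adjustment in limma, 0 of the 8 had an adjusted p under 0.05, as did 0.0148% of all probes in either direction. The 2 groups of arrays did not overlap for 2 of the 8 probes, both of *Otx2*, against 1.26% of all probes in this direction. Over the 6 genes, each by its brightest probe, the median log2 fold change was −0.23, against 0.01 over all probes. In bulk tissue, fewer cells of a type and less RNA per cell cannot be told apart.

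**Figure D1:**
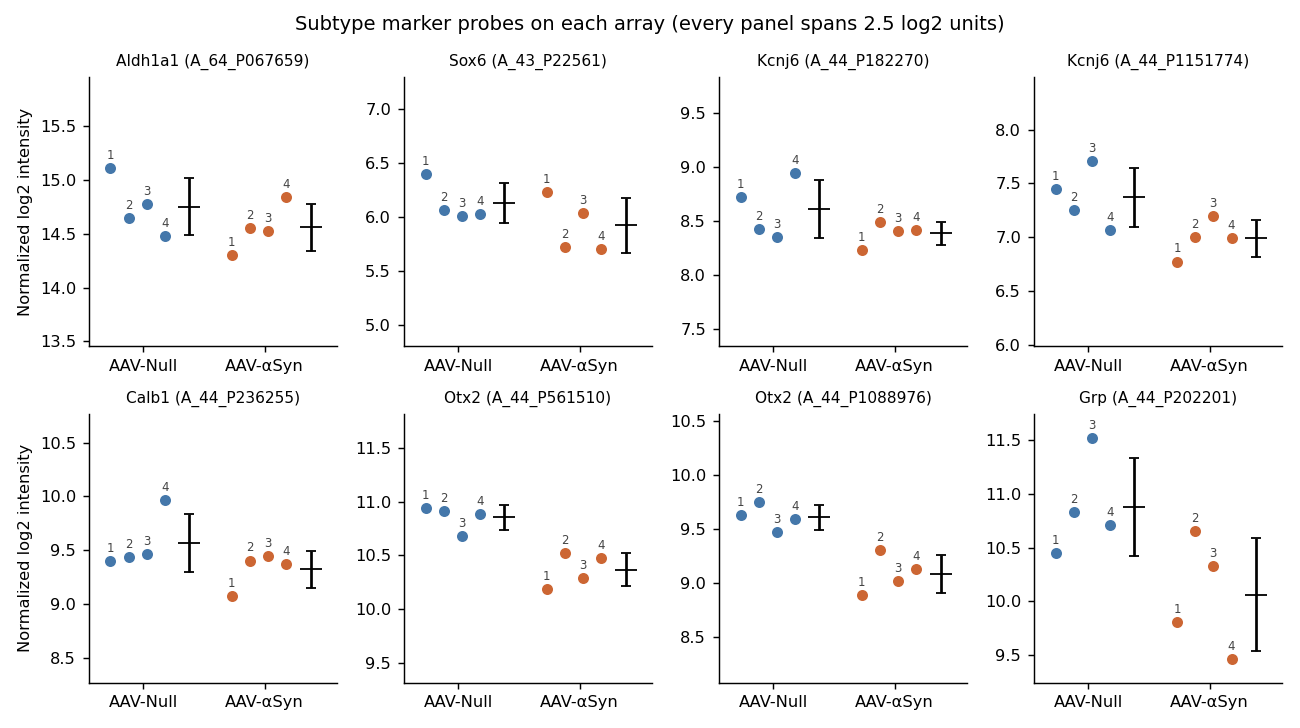
Normalized log2 intensity (vertical axis) of the 8 probes of the 6 subtype markers on each of the 4 AAV-Null arrays (blue) and 4 AAV-αSyn arrays (orange), with the replicate number above each point and the mean ± SD as bars. Every panel spans the same range of log2 units, and the points of the groups are apart in both *Otx2* panels, whereas in the other panels they overlap.

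*Aldh1a1* (A_64_P067659, NM_022407) encodes a cytosolic aldehyde dehydrogenase that produces retinoic acid and clears the aldehyde formed from dopamine. In the order of the replicate numbers, here and below, the AAV-Null arrays read 15.11, 14.65, 14.77 and 14.48 and the AAV-αSyn arrays 14.31, 14.56, 14.53 and 14.85. The groups overlapped, and the second highest of all 8 values was on an AAV-αSyn array. The group means were 14.75 ± 0.27 and 14.56 ± 0.22 (SD, n = 4 each). The log2 fold change, −0.19 with a standard error of 0.16 and a 95% interval of −0.56 to 0.18, was smaller than the spread of either group (limma, unadjusted p = 0.261, adjusted p = 0.972). Without AAV-Null replicate 1 the log2 fold change was −0.08, and without AAV-αSyn replicate 1 it was −0.11. At this number of arrays, a fall to 0.678 of the control level or a rise to 1.13 times it lies at the ends of the interval.

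*Sox6* (A_43_P22561, NM_001024751), a transcription factor that specifies ventral-tier SN neurons and is also used in oligodendrocyte precursors and interneurons, read 6.40, 6.07, 6.01 and 6.03 on the AAV-Null arrays and 6.23, 5.72, 6.04 and 5.70 on the AAV-αSyn arrays. The AAV-αSyn arrays fell into a pair within the AAV-Null range and a pair below it. The log2 fold change was −0.21 (standard error 0.15, limma, unadjusted p = 0.201, adjusted p = 0.969). The log2 fold change was −0.11 without AAV-Null replicate 1, −0.13 without AAV-αSyn replicate 4 and −0.12 with the normexp background. It was −0.50 among the arrays in column 2 of the slide and 0.09 among those in column 1, so its direction was not the same in both.

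*Kcnj6* (NM_013192) encodes Girk2, an inwardly rectifying potassium channel subunit through which dopamine autoreceptors hyperpolarise DA neurons. With its brighter probe (A_44_P182270), the log2 intensity was 8.72, 8.42, 8.35 and 8.94 on the AAV-Null arrays and 8.23, 8.49, 8.40 and 8.42 on the AAV-αSyn arrays. The AAV-αSyn arrays lay close together (SD 0.11, n = 4) around the lower AAV-Null pair, and the log2 fold change was −0.23 (standard error 0.14, limma, unadjusted p = 0.141, adjusted p = 0.961). Without AAV-Null replicate 3 its unadjusted p was 0.0491, without AAV-Null replicate 4 it was 0.342 with a log2 fold change of −0.12, and with array weights the log2 fold change was −0.13. The other probe (A_44_P1151774) gave 7.45, 7.25, 7.71 and 7.07 against 6.77, 6.999, 7.19 and 6.99. Here AAV-αSyn replicate 3 was above AAV-Null replicate 4, and the remaining AAV-αSyn arrays were below all AAV-Null arrays. Its log2 fold change was −0.38 (standard error 0.15), with an unadjusted p of 0.0348 and an adjusted p of 0.844 from limma. When AAV-Null replicate 1 or 3 or AAV-αSyn replicate 1, 2 or 4 was left out, the unadjusted p was between 0.0623 and 0.0902, and it was 0.0847 with scaling by the 75th percentile. Within columns 1 and 2 of the slide the log2 fold change was −0.37 and −0.09 for the brighter probe and −0.18 and −0.58 for the other. Both probes share a direction, but as they report on 1 gene they are not separate evidence.

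*Calb1* (A_44_P236255, NM_031984) encodes calbindin, the calcium-binding protein of dorsal-tier and many VTA neurons and of other neurons around the SN. The probe read 9.40, 9.44, 9.46 and 9.96 on the AAV-Null arrays and 9.07, 9.40, 9.44 and 9.38 on the AAV-αSyn arrays. Of the 8 arrays, 6 lay between 9.38 and 9.46, with AAV-Null replicate 4 above and AAV-αSyn replicate 1 below them. The log2 fold change of −0.24 (standard error 0.15, 95% interval −0.58 to 0.10) was smaller than the SD of the AAV-Null arrays (0.27, n = 4). Limma gave an unadjusted p of 0.139 and an adjusted p of 0.960. The log2 fold change was −0.11 without AAV-Null replicate 4, −0.16 without AAV-αSyn replicate 1 and −0.12 with array weights, and within columns 1 and 2 of the slide it was −0.44 and −0.04.

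*Otx2* (NM_001100566), a homeobox transcription factor that marks ventral VTA neurons and in development patterns the forebrain and midbrain, had the lowest p-values of the subtype markers. By unadjusted p its 2 probes ranked 71 and 85 among the 33848 tested. With the brighter probe (A_44_P561510), the AAV-Null arrays read 10.94, 10.91, 10.68 and 10.88 and the AAV-αSyn arrays 10.19, 10.52, 10.29 and 10.47. With the other (A_44_P1088976), the values were 9.63, 9.75, 9.47 and 9.59 against 8.89, 9.30, 9.02 and 9.12. On both probes every AAV-αSyn array was below every AAV-Null array, and AAV-αSyn replicate 1 was the lowest. The log2 fold changes were −0.49 (standard error 0.10) and −0.53 (standard error 0.11), that is 0.714 and 0.694 of the control level. Unadjusted p-values from limma were 0.00143 and 0.00116, and the adjusted ones were 0.553 and 0.550, so neither probe passed the adjustment over all probes. The exact permutation test (two-sided) gave p = 0.0286 for each probe, the smallest that 4 arrays against 4 allow.

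The lower *Otx2* values did not rest on 1 array. Leaving out each array in turn gave log2 fold changes between −0.55 and −0.42 for the brighter probe, with unadjusted limma p-values of 0.000751 to 0.00580. Over 12 alternative settings of the processing, they ranged from −0.52 to −0.45, with adjusted p-values of 0.117 to 0.678. Within columns 1 and 2 of the slide the log2 fold changes were −0.66 and −0.31, so the direction was the same in both while the size differed. The part of the thalamic, serotonergic and hindbrain markers, whose values are given above, in the *Otx2* difference was not tested.

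*Grp* (A_44_P202201, NM_133570) encodes gastrin-releasing peptide, a bombesin-like neuropeptide found in a subset of VTA and medial SN neurons and in neurons of other brain regions. The AAV-Null arrays read 10.45, 10.83, 11.52 and 10.71 and the AAV-αSyn arrays 9.81, 10.65, 10.33 and 9.47. *Grp* had the widest spread of the 6 genes, with SDs of 0.46 and 0.53 (n = 4 each), and AAV-αSyn replicate 2 lay above AAV-Null replicate 1. The log2 fold change was −0.81 (standard error 0.31, 95% interval −1.52 to −0.11), or 0.569 of the control level. Limma gave p-values of 0.0285 before and 0.835 after adjustment, and p was 0.0571 in the two-sided exact permutation test. Without AAV-Null replicate 3, AAV-αSyn replicate 1 or AAV-αSyn replicate 4 the unadjusted p was 0.0738, 0.0692 and 0.0719, with log2 fold changes of −0.60, −0.73 and −0.62. Within columns 1 and 2 of the slide its log2 fold change was −0.70 and −0.93.

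**Figure D2:**
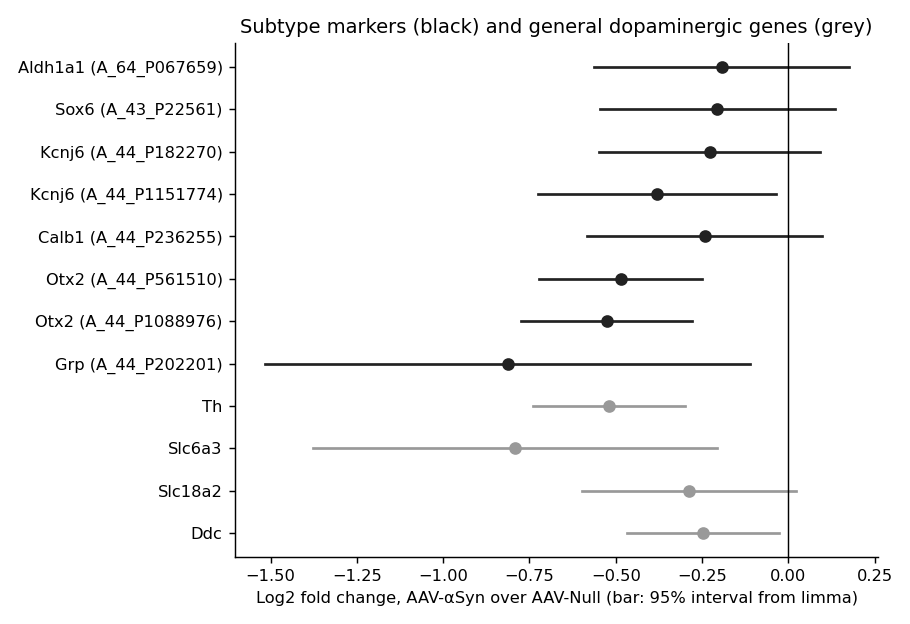
Log2 fold change of AAV-αSyn over AAV-Null (horizontal axis) with its 95% interval from limma for the 8 subtype marker probes (black) and for 4 general dopaminergic genes (grey), each of these by its brightest probe, 4 arrays per group. The intervals of *Otx2*, *Grp* and 1 *Kcnj6* probe lie below 0, as do those of *Th*, *Slc6a3* and *Ddc*, and no adjusted p of these probes was under 0.05.

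The subtype markers were then set against the general markers of DA neurons. *Th*, which encodes tyrosine hydroxylase, was 16.70, 16.51, 16.30 and 16.43 on the AAV-Null arrays and 15.99, 15.99, 16.01 and 15.88 on the AAV-αSyn arrays. The groups did not overlap, and the log2 fold change was −0.52 (standard error 0.096, limma, adjusted p = 0.483). *Slc6a3*, the dopamine transporter, had a log2 fold change of −0.79 and *Ddc*, dopa decarboxylase, by its brightest probe one of −0.25 (limma, unadjusted p = 0.0142 and 0.0327). The dimmer *Ddc* probes had −0.30 and −0.23 (limma, unadjusted p = 0.0890 and 0.145). For *Slc18a2*, the vesicular monoamine transporter, it was −0.29 (unadjusted p = 0.0653 from limma).

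To ask whether a subtype marker differed by another amount than *Th*, the log2 intensity of *Th* was subtracted from that of the marker on each array, and the 6 differences between groups were compared by exact permutation tests (two-sided, p-values not adjusted). A positive value means that the marker was less reduced than *Th*. Since *Th* itself was lower on every AAV-αSyn array, most probes are higher on this measure, 97.9% of all probes tested, with a median of 0.53, and for 54.6% the AAV-αSyn arrays all lay above the AAV-Null arrays. For the ventral-tier genes the difference between groups was 0.33 for *Aldh1a1* (p = 0.114, exact), 0.31 for *Sox6* (p = 0.0286, exact) and 0.29 for *Kcnj6* (p = 0.114, exact). The *Kcnj6* value is that of its brighter probe. Its other probe, which was lower by more (log2 fold change −0.38 against −0.23), was not set against *Th*. For the dorsal and VTA genes it was 0.28 for *Calb1* (p = 0.257, exact), 0.03 for *Otx2* (p = 0.800, exact) and −0.29 for *Grp* (p = 0.543, exact). Of the 6 genes, 5 were thus higher on this measure and 1, *Sox6*, had groups that did not overlap, a smaller share than among all probes. All 6 values lay below the median of all probes. As the same *Th* values are subtracted from every probe, this only restates that their log2 fold changes lay below the median of all probes. The values of *Sox6* ran from −10.44 to −10.29 on the AAV-Null arrays and from −10.26 to −9.75 on the AAV-αSyn arrays. The exact p was 0.0571 with scaling by the 75th percentile and with the authors' matrix, where the difference itself was 0.34 and 0.29. Within columns 1 and 2 of the slide the difference was 0.56 and 0.07 for *Sox6*, 0.03 and 0.52 for *Calb1* and 0.11 and 0.48 for *Kcnj6*. For *Otx2* it was −0.19 and 0.25 in these columns. Over all arrays the value of *Otx2* relative to *Th* was near 0, and it changed sign when single arrays were left out. That of *Grp* was −0.02 without AAV-Null replicate 3 and −0.51 without AAV-Null replicate 1. With an array left out *Calb1* ran from 0.15 to 0.42 and *Aldh1a1* from 0.21 to 0.41. Differences between the ventral and the dorsal genes themselves were not tested.

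**Figure D3:**
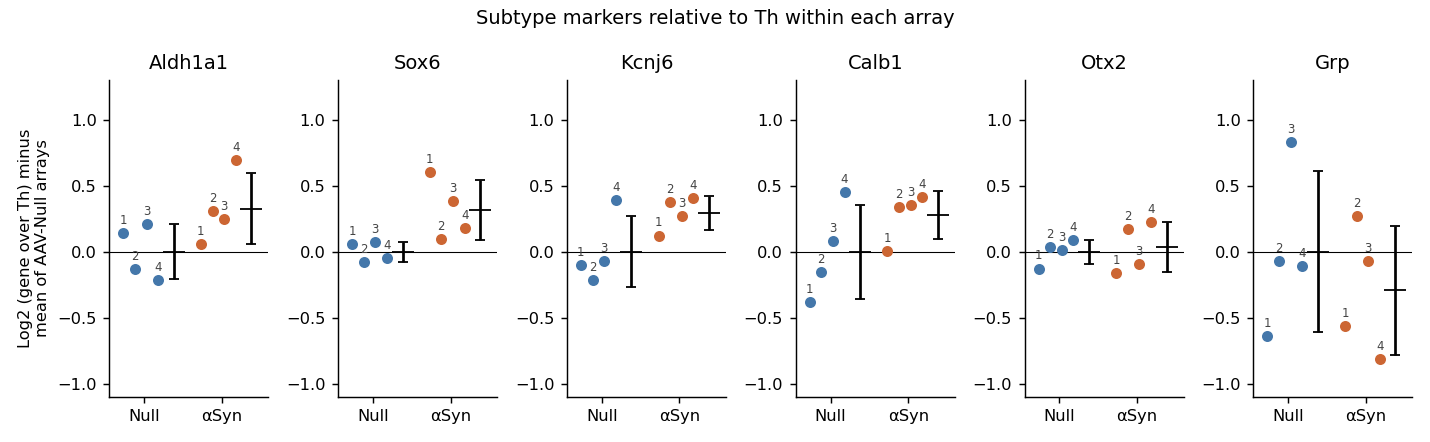
Log2 ratio of each of the 6 subtype markers to *Th* on the same array (vertical axis), shown relative to the mean of the 4 AAV-Null arrays, with replicate numbers above the points and the mean ± SD as bars. The AAV-αSyn arrays of *Sox6* all lie above its AAV-Null arrays, as they do for 54.6% of all probes, whereas the *Otx2* groups are centred on nearly the same value.

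Further genes of the same roles were examined as lists, each gene by its brightest probe. Of 16 general dopaminergic genes, 14 were lower and 7 of these had an unadjusted p under 0.05, where 47.6% and 2.34% of all probes tested did, and the median log2 fold change was −0.36. In limma 0 of the 16 passed the adjustment. Besides *Th*, *Slc6a3* and *Ddc*, the 7 were *Drd2*, the dopamine autoreceptor (−0.33), *Chrna6*, a nicotinic receptor subunit of DA terminals (−0.56), and the transcription factors *Pitx3* and *Foxa1* (−0.78 and −0.66). *Lmx1a*, a further transcription factor of the DA lineage, had a log2 fold change of −0.78 with a wider spread (unadjusted p = 0.0775 from limma), and it was −0.46 without AAV-Null replicate 4. With the normexp background *Chrna6* and *Foxa1* each had −0.37, and with array weights *Chrna6* had −0.34. Within columns 1 and 2 of the slide the log2 fold changes were −0.28 and −1.31 for *Slc6a3*, −0.36 and −1.21 for *Pitx3* and −0.11 and −1.02 for *Chrna6*. *En2* and *Gch1* were higher, by log2 fold changes of 0.32 and 0.14, both at an unadjusted p above 0.05.

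Of 8 other ventral-tier genes tested, 5 were lower, a share near the 47.6% of all probes, and 3 were higher. Their median log2 fold change was −0.17. Among the 5, *Atp2a3* and *Satb1* had an unadjusted p under 0.05, that is 2 of the 8 against 2.34% of all probes in this direction. *Agtr1a*, the angiotensin II type 1a receptor, read 5.88, 5.93, 5.67 and 6.26 on the AAV-Null arrays and 6.67, 6.45, 6.61 and 6.78 on the AAV-αSyn arrays. Every AAV-αSyn array was higher than every AAV-Null array, as for 2.56% of all probes. The means differed by 0.69 on the log2 scale (standard error 0.13), with an unadjusted p of 0.000789 and an adjusted p of 0.486 from limma, and 3.31% of all probes were higher at an unadjusted p under 0.05. With the normexp background the log2 fold change was 0.35. *Atp2a3*, a calcium pump of the endoplasmic reticulum, and *Satb1*, a chromatin organiser, had log2 fold changes of −0.57 and −0.22. Their groups did not overlap, as for 1.26% of all probes in this direction. Limma gave them unadjusted p-values of 0.00313 and 0.0208 and adjusted ones of 0.600 and 0.791. *Anxa1*, which marks a subset of the *Aldh1a1* neurons, had a log2 fold change of −0.28 and overlapping groups (limma, unadjusted p = 0.316). It was −0.04 without AAV-Null replicate 1, −0.42 without AAV-Null replicate 3, −0.17 without AAV-αSyn replicate 3 and −0.47 with array weights.

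Of 10 further dorsal-tier and VTA genes, 8 were lower (47.6% of all probes) and 1 of these had an unadjusted p under 0.05 (2.34% of all probes), and the median log2 fold change was −0.30. *Cck*, the neuropeptide cholecystokinin that many VTA and some SN neurons release, had the lowest p-value of all genes in the 5 lists that was lower in the AAV-αSyn group. It read 15.79, 15.80, 16.04 and 15.88 on the AAV-Null arrays and 15.11, 15.11, 15.22 and 14.95 on the AAV-αSyn arrays. The distance between the groups was several times the SD within each (0.12 in each, n = 4), and the log2 fold change was −0.78 (standard error 0.091), or 0.582 of the control level. Its unadjusted p was 2.44e-05 and its adjusted p 0.0918 from limma. The adjusted p was under 0.05 in 3 of 12 alternative settings of the processing (0.0262 with the normexp background, 0.00845 with an intensity trend in the variance and 0.0480 with array weights). It was up to 0.395 in the other settings and 0.162 to 0.424 with an array left out, while the log2 fold change was between −0.82 and −0.71 in all of these. *Cck* is also made by many neurons outside the DA system, the thalamus included, and the part of these in its difference was not tested. *Adcyap1*, which encodes the neuropeptide PACAP, and *Ppp1r17*, a phosphatase inhibitor, had log2 fold changes of −0.40 and −0.39 with overlapping groups. With array weights these were −0.26 and −0.21, and that of *Ppp1r17* was −0.11 without AAV-Null replicate 4 and −0.68 without AAV-Null replicate 1. Within columns 1 and 2 of the slide that of *Ppp1r17* was −0.82 and 0.04, so its direction was not the same in both. *Slc17a6*, the vesicular glutamate transporter VGLUT2, had −0.10 (limma, unadjusted p = 0.447).

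**Figure D4:**
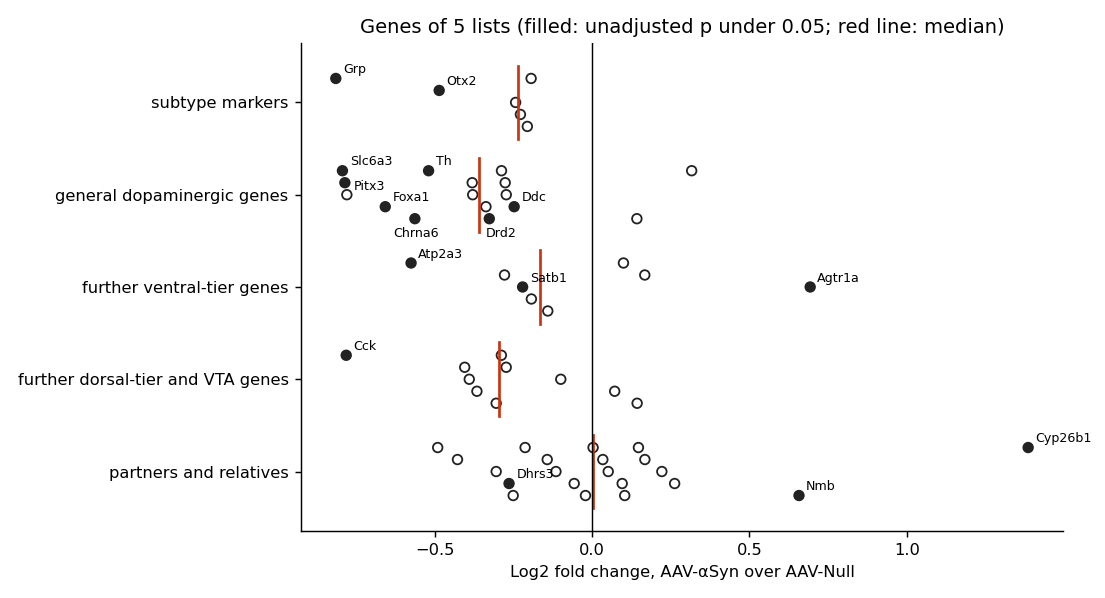
Log2 fold change of AAV-αSyn over AAV-Null (horizontal axis) for each gene of the 5 lists, by its brightest probe, with filled points at an unadjusted p under 0.05 and the median of each list in red. The medians of the subtype markers, the general dopaminergic genes and the dorsal-tier and VTA genes lie between −0.36 and −0.23. That of the further ventral-tier genes is −0.17, and the median of the partners and relatives is near 0.

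Partners and relatives of the subtype markers (retinoic acid metabolism around *Aldh1a1*, Sox and Girk relatives, calcium buffers, *Otx1* and the bombesin system around *Grp*) had a median log2 fold change of 0.00, with 10 of 21 lower and 11 higher. *Cyp26b1*, the enzyme that degrades retinoic acid, read 10.58, 10.21, 10.28 and 9.57 on the AAV-Null arrays and 11.59, 11.41, 11.53 and 11.65 on the AAV-αSyn arrays. Its groups did not overlap, and its log2 fold change was 1.39 (standard error 0.20), a ratio of 2.61, with an unadjusted p of 0.000106 and an adjusted p of 0.241 from limma. *Dhrs3*, a reductase that turns retinaldehyde back into retinol, had a log2 fold change of −0.26 (limma, unadjusted p = 0.0260). *Nmb*, neuromedin B, the relative of *Grp*, was higher on every AAV-αSyn array than on any AAV-Null array (9.38 to 10.04 against 8.77 to 9.23), with a log2 fold change of 0.66 (limma, unadjusted p = 0.00272, adjusted p = 0.600). The receptor genes *Grpr* and *Nmbr* were above background on only some arrays. *Otx1*, the relative of *Otx2*, had a log2 fold change of 0.05 (standard error 0.077, 95% interval −0.13 to 0.23). The Girk partners *Kcnj3* and *Kcnj5* had 0.00 and 0.10, and *Kcnj9* had −0.43 with overlapping groups (limma, unadjusted p = 0.0618), or −0.27 without AAV-Null replicate 3.

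Each subtype marker was also compared with the genes of all lists by the correlation of their log2 intensities over the 8 arrays, as a description of which arrays were high and low together. There were 672 such relations, and where the groups differ in both genes the pooled r includes that difference, so the r after removal of the group means is given as well. *Grp* varied most like *Prkcd* and *Gbx2*, both in the thalamic list, and *Kcnj9*. For *Prkcd*, r was 0.93 (rho 0.98) and 0.86 within groups, and for *Kcnj9* 0.90 (rho 0.95) and 0.83 within groups. For *Gbx2*, r was 0.91 and rho 1, since both genes put the 8 arrays in the same order, and r was 0.84 within groups and 0.98 without the 2 arrays farthest from the median of *Grp*. The relation of *Grp* to *Gbx2* had an exact permutation p of 2.48e-05, the smallest that 8 arrays allow, and 0.0167 after Benjamini–Hochberg adjustment over the 672 relations, the only one under 0.05. These p-values are of the pooled r, so they include the shared difference between the groups, and the r within groups was not tested. The log2 fold changes of *Gbx2* and *Prkcd* themselves were −2.0 and −1.56. Without AAV-αSyn replicate 4, on which *Gbx2* read 5.71 against 8.69 to 9.89 on the other AAV-αSyn arrays, that of *Gbx2* was −1.095.

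*Otx2* varied most like *Drd2* (r = 0.89), *Th* (r = 0.89) and *Satb1* (r = 0.88), with rho of 0.88, 0.88 and 0.83. Within groups these were 0.53, 0.37 and 0.52, so much of the pooled correlation was the distance between the groups. *Aldh1a1* varied most like *Slc18a2* (r = 0.88, rho 0.86), *Fst* (r = 0.87, rho 0.90) and *Ddc* (r = 0.82, rho 0.55), and within groups these were 0.88, 0.85 and 0.84. Without the 2 arrays farthest from the *Aldh1a1* median, r was 0.57 for *Slc18a2*, 0.92 for *Fst*, which encodes follistatin, and 0.28 for *Ddc*.

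*Calb1* was most like *Slc17a6* (r = 0.92, rho 0.81), *Kcnj6* (r = 0.84, rho 0.31) and *Calb2*, the calretinin gene (r = 0.81, rho 0.81). Within groups r was 0.94, 0.77 and 0.73. Without the 2 arrays farthest from the *Calb1* median these were 0.37, −0.46 and 0.67. *Kcnj6* was most like *Nr4a2* (r = 0.87, rho 0.79), *Calb1* and *Lmx1a* (r = 0.82, rho 0.45), with 0.82, 0.77 and 0.73 within groups. Without the 2 arrays farthest from the *Kcnj6* median r was 0.35 for *Nr4a2*, 0.79 for *Calb1* and −0.04 for *Lmx1a*. The relation of *Calb1* to *Kcnj6* thus depended on which arrays were removed. For *Sox6* the closest were *Foxa2* (r = 0.75, rho 0.50), *Ret* (r = 0.74, rho 0.79) and *Th* (r = 0.66, rho 0.57), with an r of 0.67, 0.65 and 0.66 within groups and of 0.61, 0.43 and 0.16 without the 2 farthest arrays.

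**Figure D5:**
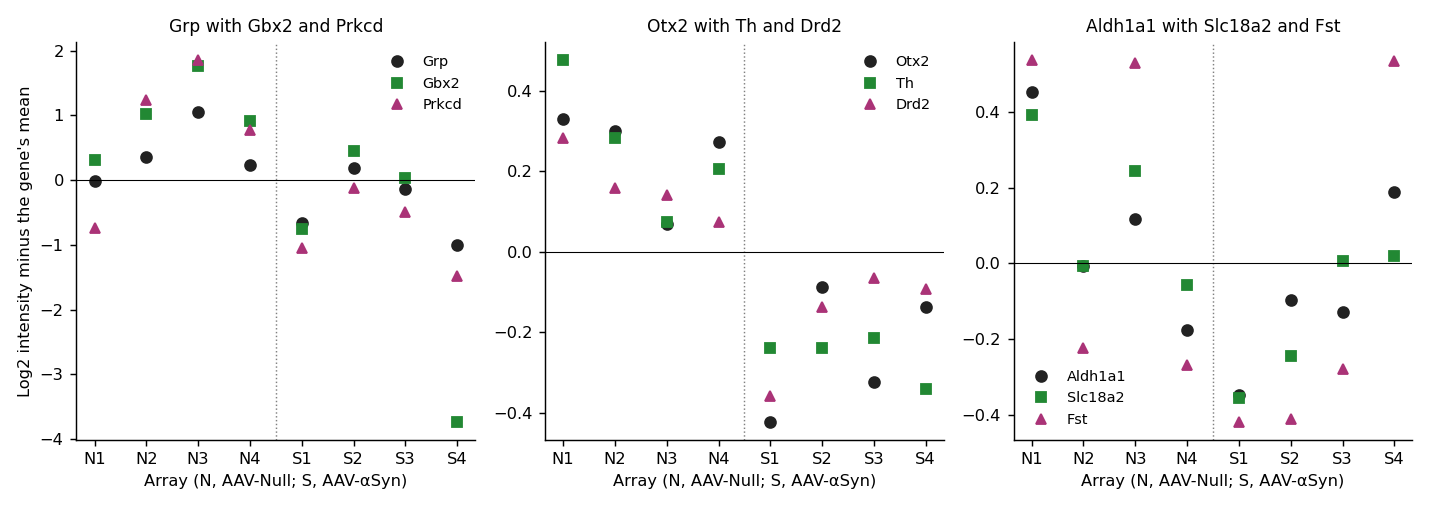
Log2 intensity minus the gene's own mean over the 8 arrays (vertical axis) for *Grp*, *Otx2* and *Aldh1a1*, each with 2 of the genes most like it, on the AAV-Null arrays (N1 to N4) and the AAV-αSyn arrays (S1 to S4). *Grp* and *Gbx2* rank the arrays in the same order, *Otx2*, *Th* and *Drd2* are above their means on all AAV-Null arrays and below on all AAV-αSyn arrays, and *Aldh1a1* and *Slc18a2* are highest on N1 and lowest on S1.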

How the data were processed

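RNA was labelled with Cy3 and each sample was hybridised to its own array, 4 per group, more than the biological replicates the methods describe. The authors deposited scanner files with each spot's intensity, corrected for background by Feature Extraction but not yet scaled across arrays. The file headers give version 12.0.3.2 and the submitters' processing notes 11.5.1.1. The authors also deposited a matrix of quantile-normalized log2 values, used as an alternative. The methods name limma with quantile normalization after removal of control and under-threshold spots.

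Values were recomputed with R 4.3.3 and limma 3.58.1 (tables with Python 3.11.15, pandas 2.3.3 and scipy 1.17.1). Control spots and outlier spots were removed, as were probes that no array showed above background (above background: at least 0.5 of a probe's spots called well above it). The processed intensity was taken to log2, quantile normalized and averaged over a probe's spots. Groups were compared by lmFit and eBayes, two-sided, with 0.05 as the threshold after Benjamini–Hochberg adjustment. For exact permutation tests, the 8 arrays were split in all 70 ways. Symbols came from RefSeq accessions of the rat assembly GRCr8, which named 21229 of the 45598 probes. The scripts were tested on simulated data.

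The subtype markers, the lists and the tests were chosen with earlier results of these data known. Named genes were every subtype marker, *Th*, *Slc6a3*, *Slc18a2*, *Ddc*, list genes at an unadjusted p under 0.05 (for 4 context lists also up to 3 with the largest log2 fold change among those above background on all arrays), and the 3 genes most like each marker. The hindbrain genes *Hoxa2*, *Hoxa4* and *Dbh* also had an unadjusted p under 0.05 but are not described above. None of them was above background on all arrays. *En2*, *Gch1*, *Slc17a6*, *Otx1*, *Kcnj3*, *Kcnj5*, *Grpr*, *Nmbr* and *Ttr* were named after their values were seen. *Lef1* and *Fev* did not meet the rule either and complete the tested genes of the thalamic and serotonergic lists. Alternatives were scaling by the 75th percentile, cyclic loess, normexp with an offset of 50 (on the median signal, as a mean signal column was not used), other filters, the deposited matrix, trend, robust or weighted variance, replicate or slide column as a block, and each array left out. No coordinates are given, since the files and the table of names are of different builds.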

Additional observations from a re-analysis of the deposited data

Results flagged for a closer look

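In 4 of 104 groups of 4 arrays examined, over the subtype marker probes and the brightest probe of each other gene named, 1 array stood far from the other 3, by the gap to the nearest array as a share of the group's range. Chance gives about 1 in 20 groups, or 5.2 of 104. *Calb1* was 9.96 on AAV-Null replicate 4 and 9.40 to 9.46 on the other AAV-Null arrays. *Sox6* was 6.40 on AAV-Null replicate 1 and 6.01 to 6.07 on the others. *Adcyap1* was 10.40 on AAV-Null replicate 4 and 9.90 to 9.95 on the others. *Fst* was 6.39 on AAV-αSyn replicate 4 and 5.44 to 5.58 on the other AAV-αSyn arrays.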

How the results depend on the processing

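The log2 fold changes of the 6 subtype markers stayed below 0, and no probe of theirs passed the adjustment, in 12 alternative settings of the processing and with each array left out. Within single columns of the slide, chosen after seeing the data, *Sox6* was 0.085 in column 1 and *Ppp1r17* 0.036 in column 2. The count of subtype marker probes at an unadjusted p under 0.05 was 2 to 4 with an array left out (2 without AAV-αSyn replicate 1 or 4) and 1 in column 2 of the slide. *Sox6* relative to *Th* was 0.34 (exact p = 0.0571) with scaling by the 75th percentile, 0.29 (exact p = 0.0571) with the deposited matrix and 0.56 and 0.070 in the columns of the slide. It was 0.22 to 0.39 with an array left out, with an exact p of 0.0571 to 0.0857 without any 1 of the AAV-Null arrays. *Kcnj6* relative to *Th* was 0.22 to 0.42 with an array left out, with an exact p of 0.0286 without AAV-Null replicate 4. *Otx2* relative to *Th* was −0.026 to 0.10 with an array left out. It was −0.0074 without AAV-Null replicate 1, −0.0091 without AAV-αSyn replicate 2 and −0.026 without AAV-αSyn replicate 4. In columns 1 and 2 of the slide it was −0.19 and 0.25. The cause of these shifts was not tested. Same-numbered arrays of the groups share a row of the slide, and their deviations from the group means correlated at 0.14, 0.27, 0.04 and 0.00. Differently numbered arrays correlated at −0.28 to 0.26, so these values do not decide whether the numbers pair the samples. With a replicate block, which is also a block by slide row, 4 subtype marker probes again had an unadjusted p under 0.05. With this block 0 of them passed the adjustment, and over all probes 0 passed instead of 5. Array weights gave 4497 probes at an unadjusted p under 0.05 instead of 1912, and 10 instead of 5 past the adjustment. The probes past it numbered 3 to 5 with an array left out, 3 with the slide column as a block and 0 in either column alone. All subtype marker probes were well above background on all arrays and no spot was saturated.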
